A study of Mus musculus with 2 samples.

Results

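The 10 genes described here mark the move of naive mouse embryonic stem cells towards primed epiblast, and they comprise the transcription factor genes Otx2, Pou3f1, Sox3, Sox4, Sox11, Sox12, Zic1, Zic2 and Sall2, and the growth factor gene Fgf5. They were taken by name from the platform annotation, which gave the 10 genes 17 probe sets of their own (a probe set is a group of short probes for 1 transcript, read as 1 value), out of 12393 genes and 20380 probe sets named for 1 gene. The measurements set side by side a pair of clones of the mouse embryonic stem cell line E14tg2a: shDAB2 clone 4, stably transfected with a plasmid for a short hairpin RNA against Dab2 (shDAB2-285), and vector clone 9, stably transfected with the control plasmid. Both clones were kept in serum (10% FBS) with LIF at 1000 U/ml, the cytokine that keeps these cells undifferentiated, and each array took 10 µg of total RNA. Each clone is a single isolate hybridised to 1 Affymetrix mouse 430A array, so no p-value or replicate error exists for any value, and clone, culture and hairpin cannot be told apart.

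Embryonic stem cells in LIF resemble the epiblast of the blastocyst before implantation. When they leave this naive state, OTX2 is known to redirect OCT4 to new enhancers, Fgf5 and Pou3f1 are induced, and SOX and ZIC factors later take part in choosing neural and other fates. The study asked which transcripts differ when Dab2 is targeted.

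Of the 10 genes, Otx2 had the largest difference and was 1.70-fold higher in the shDAB2 clone. Sox4 and Pou3f1 followed at 1.35-fold and 1.22-fold, and the other 7 genes lay within 1.15-fold in either direction, among them Fgf5 at 1.07-fold. In all, 9 genes were higher and 1, Sox11, was lower, where 52.9% of all 12393 genes were higher. The 10 genes and the lists set beside them below were chosen with earlier results of these arrays known. Such counts and ranks therefore describe the chosen genes only. All values are log2 expression as deposited, and a difference is shDAB2 minus vector. In these bulk samples, more cells with a transcript and more RNA per cell cannot be told apart.

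The promoters of 3 of these genes are printed: Otx2 had the largest difference, Fgf5, the usual marker of this transition, a small one, and Sox12 almost none. Sox11, the only lower gene, is not among them. They were chosen after their values and motif matches were seen: the 3 windows printed are the only ones of the 11 found for these genes that hold a motif searched here, and for Otx2 the 1 window of 4 with a match was taken. The sequences are from RefSeq (GRCm38.p6) and run from 250 bases before to 50 bases after an annotated start, 5′ to 3′ on the gene's strand. Capitals mark matches, on either strand, to TAATCC (the motif that OTX homeodomains are known to bind), ATGCAAAT (the octamer of POU factors) or ACAAAG (a SOX-type motif); none of these matches overlaps another.
Otx2, chr14:48665060-48665359, minus strand: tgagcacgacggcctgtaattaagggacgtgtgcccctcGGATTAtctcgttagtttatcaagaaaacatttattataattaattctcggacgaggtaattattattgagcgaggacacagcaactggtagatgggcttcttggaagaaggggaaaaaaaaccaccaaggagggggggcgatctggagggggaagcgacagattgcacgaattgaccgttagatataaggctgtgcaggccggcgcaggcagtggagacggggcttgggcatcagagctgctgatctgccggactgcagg
Fgf5, chr5:98253934-98254233, plus strand: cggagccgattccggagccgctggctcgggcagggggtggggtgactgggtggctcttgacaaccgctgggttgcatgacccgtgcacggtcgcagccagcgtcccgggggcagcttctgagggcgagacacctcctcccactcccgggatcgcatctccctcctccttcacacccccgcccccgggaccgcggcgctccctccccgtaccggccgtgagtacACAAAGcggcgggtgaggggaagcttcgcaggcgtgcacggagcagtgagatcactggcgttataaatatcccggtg
Sox12, chr2:152397997-152398296, minus strand: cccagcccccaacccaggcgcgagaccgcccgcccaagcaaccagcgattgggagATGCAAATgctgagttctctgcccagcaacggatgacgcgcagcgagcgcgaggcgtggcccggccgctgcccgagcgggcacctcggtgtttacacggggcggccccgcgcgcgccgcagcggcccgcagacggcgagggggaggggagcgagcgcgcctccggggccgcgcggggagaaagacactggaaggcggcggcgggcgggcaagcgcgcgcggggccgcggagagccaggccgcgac

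The Otx2 window, 1 of 4 annotated for that gene, holds the OTX motif on the opposite strand, written GGATTA. The Fgf5 window holds the SOX-type motif and the Sox12 window the octamer. Among all 32851 promoter windows of 300 bases, 7.06% held the OTX motif, 1.74% the octamer and 18.7% the SOX-type motif on either strand. Of the 11 windows found for 7 of the 10 genes, each motif was in 1, and 8 held none. No window of Pou3f1, Sox3 or Zic2 was used here. The windows differed widely in base composition, from 30.3% G+C at one Sall2 start to 76.7% at Sox12, against a median of 52.7% over all windows. A match describes these letters and does not show binding.

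Dab2, the gene targeted by the hairpin, encodes an endocytic adaptor protein. The brightest of its probe sets gave 6.33 in shDAB2 cells, against 6.64 in vector cells, a difference of -0.31, while its other probe sets differed by -0.05 and -0.01. A floor was set at 6.62, the median of all probe-set values, and a gene passed it when the higher of its values did. Dab2 passed it narrowly and on the vector array alone, and its other probe sets lay below it on both arrays. The arrays thus show little Dab2 signal in either clone. Over the 7269 genes above the floor the differences had an SD of 0.22 and a median of 0.00. A repeat measurement exists only between probe sets of the same gene: over 2502 genes with at least 2 probe sets above the floor, the SD of the difference for 1 probe set was 0.11, which covers probe noise and transcript variants but not cultures or clones. The stem cell marker gene Pou5f1, which encodes OCT4, lay far above the floor on both arrays, at 9.93 in shDAB2 cells, against 9.83 in vector cells.

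Otx2 encodes a homeodomain factor that is also needed for forebrain and midbrain development. Its single probe set read 7.59 in shDAB2 cells, against 6.83 in vector cells. The difference of 0.77 was 4.12 times the SD of 0.19 among the 1791 genes within 0.25 of its mean signal. It ranked 10th from the highest among the genes above the floor. Otx2 was the 1 gene of the 8 above the floor that reached 1.5-fold higher, and 0 of the 8 reached 1.5-fold lower. Over all genes above the floor 0.578% reached 1.5-fold in the higher direction and 1.62% in the lower one. The value was not repeated on a second probe set, and the ID of the one used ends in _a_at, the suffix for probes shared by several transcripts of a gene; leaving out such probe sets leaves no Otx2 value.

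The genes with values nearest to those of Otx2 over the 2 arrays were Hes6, Tlcd1 and Calcoco2. Hes6 read 7.54 in shDAB2 cells, against 6.81 in vector cells, at a distance of 0.06 in log2 units. Tlcd1 lay at a distance of 0.11 and Calcoco2 at 0.13. With 1 array per clone such nearness describes 2 numbers only.

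Pou3f1 encodes OCT6, a POU-domain factor of the epiblast that later acts in myelinating Schwann cells. The brightest of its probe sets gave 7.89 in shDAB2 cells, against 7.60 in vector cells, and the second read 7.04 in shDAB2 cells, against 6.72 in vector cells. The differences of 0.29 and 0.32 were thus alike on both probe sets. Each is larger than the probe-set SD of 0.11, but the first is only 1.24 times the SD of 0.23 among the genes of similar signal.

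Fgf5 encodes a secreted ligand of FGF receptors and is the usual marker of the epiblast after implantation. It read 6.63 in shDAB2 cells, against 6.54 in vector cells. The difference of 0.10 is smaller than the probe-set SD and 0.96 times the SD of genes of similar signal. Both values lay near the floor, so the arrays show little Fgf5 signal in either clone.

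**Figure D1:**
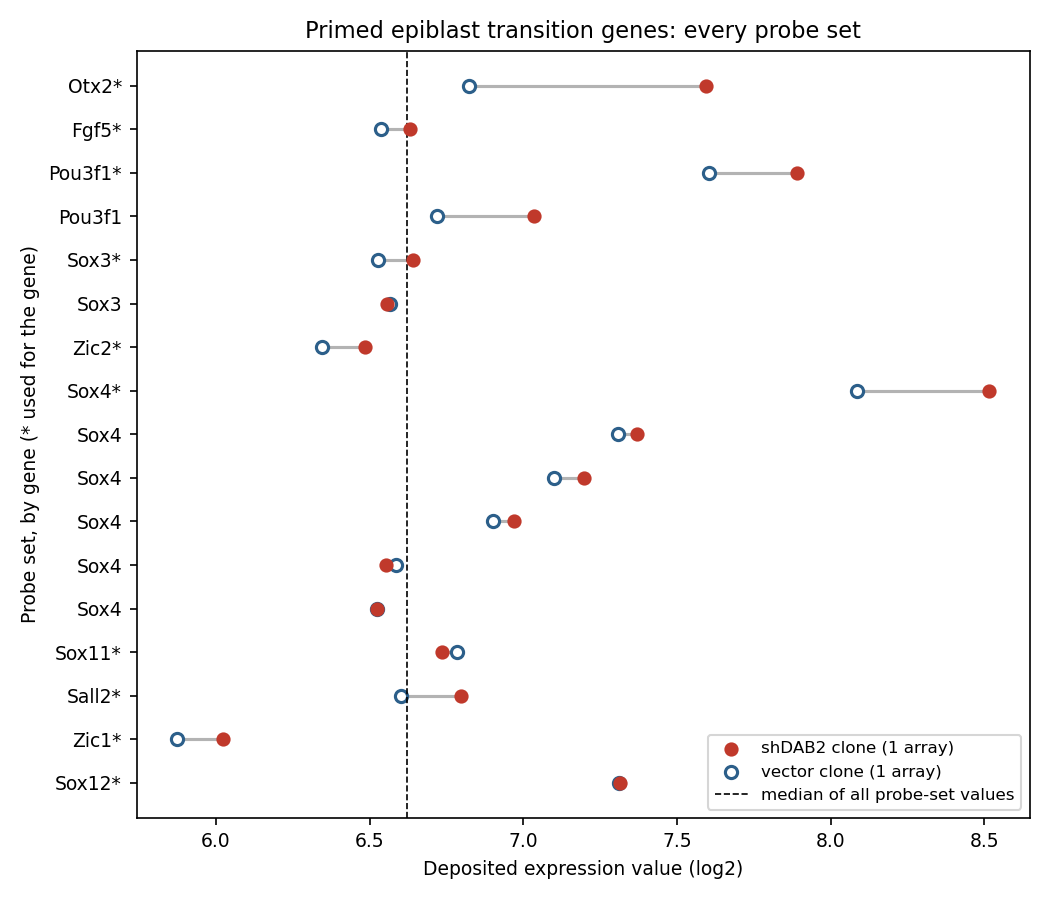
Log2 expression of all 17 probe sets of the 10 genes (rows) in the shDAB2 clone (filled) and the vector clone (open), 1 array each, with no error bars because there are no replicates; the dashed line is the floor of 6.62. The gap is widest for Otx2, alike on both Pou3f1 rows, and wide on only 1 of 6 Sox4 rows.

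The SOX genes encode factors with an HMG box, a domain that binds and bends DNA. Sox4, Sox11 and Sox12 form the SoxC group, known for its part in neuronal differentiation. Sox4 read 8.52 in shDAB2 cells, against 8.09 in vector cells on its brightest probe set, a difference of 0.43. The other 5 Sox4 probe sets gave 0.06, 0.10, 0.07, -0.03 and 0.00. Those at -0.03 and 0.00 lay below the floor on both arrays, where the method that made the values is known to shrink differences. The mean over all 6 was 0.10 and over the 5 without the brightest 0.04. The size of the Sox4 difference therefore rests on 1 probe set. One of the 5 had the same value of 6.52 on both arrays to every digit deposited, as had 340 of all 22626 probe sets.

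Sox11 was 6.73 in shDAB2 cells, against 6.79 in vector cells, and its difference of -0.05 was the single negative one. Sox12 was 7.32 in shDAB2 cells, against 7.31 in vector cells, a difference of 0.00. Both differences are smaller than the probe-set SD. Sox3, an X-linked gene of the SoxB1 group that is known from neural progenitors, read 6.64 in shDAB2 cells, against 6.53 in vector cells, a difference of 0.11. Its second probe set, below the floor on both arrays, gave -0.01, so the direction of Sox3 was not repeated.

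The zinc finger genes were dim. ZIC factors are relatives of the GLI proteins and act in neural tube and cerebellum development. Zic2 read 6.48 in shDAB2 cells, against 6.35 in vector cells, a difference of 0.14. Zic1 read 6.02 in shDAB2 cells, against 5.87 in vector cells, a difference of 0.15. Both genes lay below the floor on both arrays, where the method that made the values (RMA) is known to shrink differences. The Zic1 difference was 2.33 times the SD of 0.06 among genes as dim as it. Sall2, a spalt-family factor of neural and eye development, read 6.80 in shDAB2 cells, against 6.60 in vector cells, a difference of 0.20 or 1.69 times the SD of its neighbours in signal. Each of these 3 genes had 1 probe set.

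**Figure D2:**
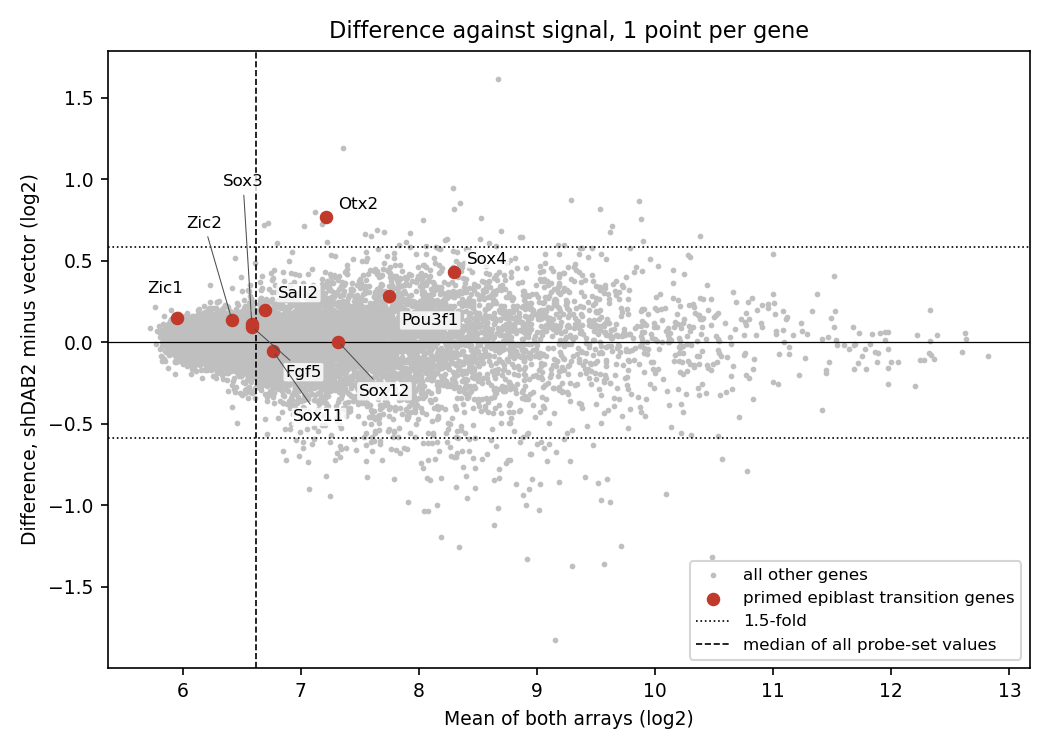
Difference (shDAB2 minus vector, log2) against the mean of both arrays (log2) for 12393 genes, with the 10 genes in red; dotted lines mark 1.5-fold and the dashed line the floor. Otx2 at 0.77 lies above the upper dotted line, and the other 9 genes lie between the lines.

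Ordered by difference, the genes ran Otx2, Sox4, Pou3f1, Sall2, Zic1, Zic2, Sox3, Fgf5, Sox12 and Sox11. The gap between Otx2 and Sox4 was 0.34, larger than the SD of 0.15 expected between 2 probe sets. The other 8 gaps between neighbours were smaller than that SD, so neighbours in the order below Otx2 are not resolved. Without Otx2 the median of the remaining 9 was 0.14, the same to this precision as the median of all 10.

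Of the 10 genes, 8 passed the floor, where 7269 of all 12393 genes did. Fgf5, Sox3 and Sall2 passed through the shDAB2 array alone, so they had to be higher there and add nothing to a count. Over all 10 genes with no floor, 9 were higher, where 52.9% of all 12393 genes were. Above the floor 7 of 8 were higher, where 50.0% of genes above it were, and 1 of 8 was lower, where 49.3% were. Fgf5, Sox3 and Sall2 are among those 7 and also enter the median of the 8. Of the 5 genes above the floor on both arrays, Otx2, Sox4, Pou3f1 and Sox12 were higher and Sox11 was lower. The median was 0.16 for the 8 and 0.14 for all 10, against 0.00 for all genes above the floor and 0.01 for all genes. By probe set, 13 of 17 were higher, 3 lower and 1 equal, with a median of 0.10, where 51.9% of all probe sets with 1 gene were higher. The genes had been picked with earlier results of these arrays known, so these counts describe the list only.

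Genome position and gene span were set beside the values. Otx2, Zic2 and Sall2 lie on chromosome 14, where the median over the other 245 genes above the floor was 0.00. Sox11 lies on chromosome 12, where that median was 0.06 over 235 genes. Over all genes above the floor the difference varied a little with the span of the gene, with medians of 0.03 in the fifth with the shortest spans (up to 7.36 kb) and -0.03 in the fifth with the longest. The part of this trend in the values was not tested. The Otx2 gene spans 10.9 kb.

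Other genes known to rise on the way to formative or primed epiblast were also mixed. Of 15 measured, 12 passed the floor, where 7269 of all 12393 genes did. Of these 12, 9 were higher and 3 lower, where 50.0% of all genes above the floor were higher. The median of the 12 was 0.14, against 0.00 for all genes above the floor. One reached 1.5-fold higher and 0 reached 1.5-fold lower, beside the 0.578% and 1.62% of all genes. That one was Dnmt3a, a de novo DNA methyltransferase, at 7.99 in shDAB2 cells, against 7.30 in vector cells. Its brightest probe sets gave 0.69 and 0.67, but the mean of all 5 was 0.22, with which 0 genes of the list reached 1.5-fold. Dnmt3b, its partner in laying down methylation after implantation, differed by 0.40 and 0.49 on its probe sets. The cell adhesion gene Cdh2 (N-cadherin) differed by 0.41 and 0.20, and passed the floor through the shDAB2 array alone. Nodal, a ligand that helps maintain the epiblast, differed by 0.28 and 0.11. Tead2 at -0.25, the lowest of the list, was named after its value was seen. With no floor, 11 of the 15 were higher and the median was 0.08, where 52.9% of all genes were higher and their median was 0.01.

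Naive pluripotency genes, which fall in the same transition, lay on both sides of 0. All 15 measured passed the floor, with 7 higher, 8 lower and a median of -0.02; 1 was at least 1.5-fold higher (0.578% of all genes above the floor) and 2 at least 1.5-fold lower (1.62%). The Krüppel-like factor gene Klf5 was 9.08 in shDAB2 cells, against 10.33 in vector cells, a difference of -1.25, but of -0.33 on its second probe set. Tfcp2l1, a target of LIF and STAT3, differed by -0.65 and by -0.07 on its second probe set. Klf2 differed by -0.54 on its only probe set. Against these, the ligand gene Fgf4 was 0.61 higher and 0.34 higher on its second probe set. With each gene averaged over its probe sets, 0 naive genes stayed 1.5-fold higher and 1, Klf5, stayed 1.5-fold lower. Of the core factors that both states share, Pou5f1 differed by 0.10, Sall4 by 0.10 and Sox2 by -0.17. Only the Sox2 difference is larger in size than the probe-set SD of 0.11.

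**Figure D3:**
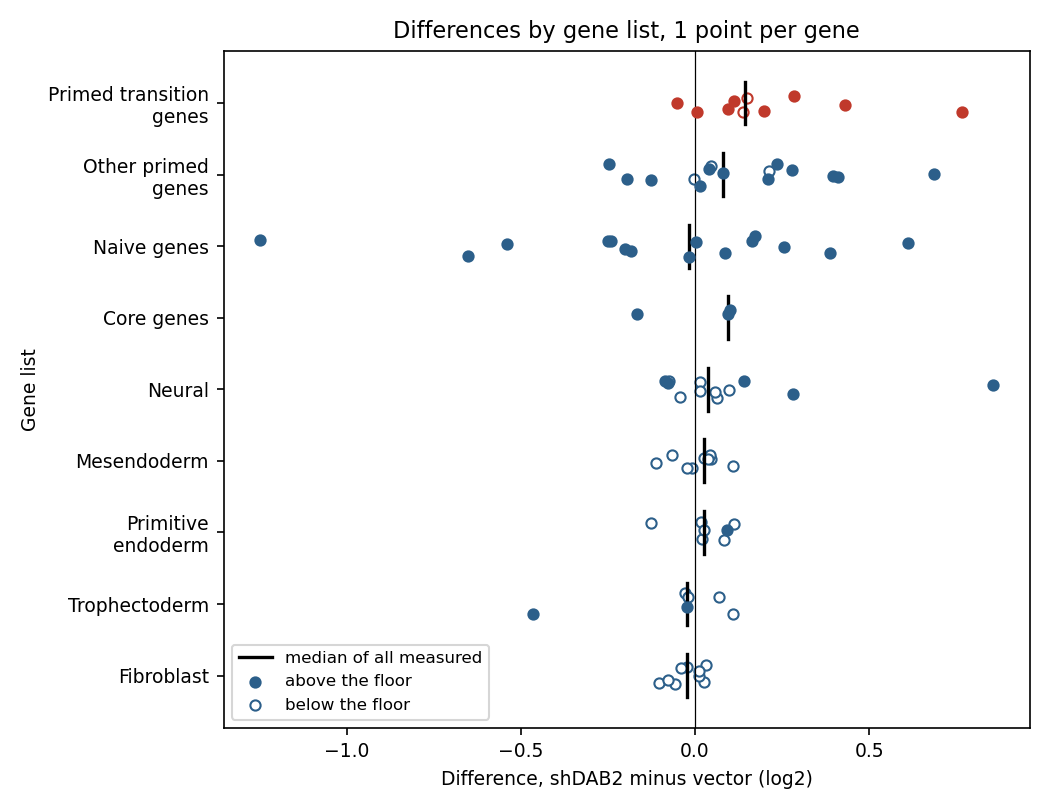
Difference (shDAB2 minus vector, log2) of each measured gene, by list; filled points passed the floor, open points did not, and vertical bars are medians over all measured genes of a list. The 10 genes have their median at 0.14, the other primed genes at 0.08 and the naive genes at -0.02, and most markers of other lineages lie below the floor and near 0.

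Relatives of the 10 genes from the same families mostly differed little. Of 14 measured, 6 passed the floor, where 7269 of all 12393 genes did. Of these 6, 3 were higher and 3 lower, where 50.0% of all genes above the floor were higher. The median of the 6 was 0.04, against 0.00 for all genes above the floor. Fgf4 was the 1 that reached 1.5-fold higher and 0 reached 1.5-fold lower, beside the 0.578% and 1.62% of all genes. Some of these relatives are counted in other lists too. Fgf4 is among the naive genes, Sox2 and Sall4 among the core genes, Zic5 among the other primed genes and Sox1 among the neural markers. Besides Fgf4, Fgf15, an FGF ligand known from the gut and the embryonic brain, was 7.20 in shDAB2 cells, against 6.65 in vector cells, a difference of 0.55 on 1 probe set. The POU genes Pou3f2 (-0.03), Pou3f3 (0.05) and Pou3f4 (0.03), named after their values were seen, differed by less than the probe-set SD. Pou3f1 differed by 0.29 and 0.32. Pou3f3 and Pou3f4 lay below the floor on both arrays, where RMA shrinks differences. Pou3f2 passed the floor but was dimmer than Pou3f1, at 6.91 in shDAB2 cells, against 6.94 in vector cells. None of these POU genes thus matches Pou3f1 in signal. Among Zic1's and Zic2's relatives Zic4 gave 0.19 and Zic5 0.05, both below the floor and also named after their values were seen, while their second probe sets gave -0.05 for Zic4 and 0.28 for Zic5. Otx1 was not analysed here.

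Since several of the 10 genes also act in neural cells, markers of other lineages were set beside them. Of 12 neural markers measured, 8 were higher and 4 lower, where 52.9% of all genes were higher. Where 7269 of all 12393 genes passed the floor, 5 of the 12 did. Those were Nefl (0.86), Nefm (0.28), Tubb3 (0.14), Stmn2 (-0.09) and, named after its value was seen, Nes (-0.08). The neurofilament genes Nefl and Nefm and the marker Tubb3 differed in the direction of Otx2, and Stmn2 and Nes in the other direction. The neural regulators Sox1 and Pax6, named after their values were seen, read 6.33 and 6.52 in shDAB2 cells, against 6.32 and 6.50 in vector cells, below the floor. The summed linear signal of the neural list was 2099.6 in shDAB2 cells, against 1910.5 in vector cells. Without Nefl the other 11 markers summed to 1661.6 in shDAB2 cells, against 1668.5 in vector cells. Stmn2, at 9.26 in shDAB2 cells, against 9.35 in vector cells, weighs most in that second sum. Below the floor lay 7 of the 12 markers, so neither sum describes the list marker by marker. The part of these markers in the values of the 10 genes was not tested.

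Other lineages gave little signal. All 9 mesendoderm and all 9 fibroblast markers lay below the floor on both arrays, where 7269 of all 12393 genes passed it. Their differences ran from -0.11 to 0.11 and from -0.10 to 0.03. Of 7 primitive endoderm markers only Hnf4a passed, at 0.09, and Gata4 and Gata6, named as defining genes and outside the rule for named genes, stayed below it. Of 6 trophectoderm markers Tfap2c (-0.47) and Hand1 (-0.02) passed, while Cdx2 and Elf5, also defining genes outside that rule, did not. The deposited scale has no true 0, so these genes are dim and not shown to be absent.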

How the data were processed

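RNA of 2 clones was measured on 2 arrays. The authors deposited a table with 1 log2 value for every probe set on each array; the submitters' processing notes name RMA, a method that subtracts background, normalizes between arrays and shrinks differences of dim probe sets. The log base is unstated, and base 2, which RMA writes, was assumed; the version of RMA is not given in the sources used here. Deposited values spanned 5.67 to 12.81 for shDAB2 and 5.65 to 12.86 for vector. The number of arrays limits the precision.

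Of 22626 probe sets, 20380 had 1 gene in the platform annotation and were used, 691 had several and 1555 none. A gene took its brightest probe set by mean. Groups came from the sample titles. No test was possible with 1 array per clone, so differences are given by size. The procedure was run on simulated data, with planted differences larger than that of Otx2 and no variation between clones. That run does not bear on differences as small as most of those given here. Alternatives were cyclic loess (limma 3.58.1, R 4.3.3), median centring, the mean of all probe sets, fewer probe set types, other floors and a 2-fold limit. Tables were made with pandas 2.3.3.

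The genes and lists were chosen with earlier results of these data known. Some lists share genes, and each list counts them. Named genes are the 10, Dab2, up to 4 per list with the largest absolute difference above the floor, the core genes and the 3 genes nearest to the leading gene; any other is marked as chosen after its value was seen or as a defining gene.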

Additional observations from a re-analysis of the deposited data

How the results depend on the processing

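Each of the 10 genes kept its direction under cyclic loess, median centring and the mean of all probe sets. With that mean the Sox4 difference was 0.10 and that of Sox3 0.05. Leaving out probe sets with shared or variant suffixes (_s_at, _x_at, _a_at) removed Otx2, Fgf5 and Sox11, so 0 genes of the list were then 1.5-fold higher. None of the 10 reached 2-fold, so that count was 0 at a 2-fold limit; over all genes it was 2 higher and 13 lower there. A floor at the 75th percentile left 3 of the 10 genes, Otx2, Sox4 and Pou3f1, all 3 higher. Otx2 passed that floor through the shDAB2 array alone, so it had to be higher there and adds nothing to that count. The median of 0.43 was the Sox4 value on its brightest probe set. These changes follow from the stricter limits and the fewer genes left. A floor on the mean of both arrays, chosen after seeing the data, left 6. Among the other genes named, the mean of all probe sets gave Dab2 -0.12, Klf5 -0.79, Tfcp2l1 -0.25, Fgf4 0.30, Dnmt3a 0.22 and Tfap2c -0.31, and without the suffixed probe sets Dab2 was -0.01 and Klf5 -0.33. That mean moved 7 of the 16 named genes with several probe sets by more than the probe-set SD, and cyclic loess 0 of 30. A floor cannot move the difference of a single gene. No paired analysis was possible because each clone has 1 array. No replicate could be left out for the same reason. Signal near the lower end of the arrays limits Fgf5, Sox3, Zic1 and Zic2.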
